A study of Mus musculus with 15 samples.

Results

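The nuclear genes for the subunits of respiratory complexes II, III and IV and of ATP synthase (complex V) were followed in quadriceps muscle of 15 mice. The members were the protein-coding genes Sdha, Sdhb, Sdhc, Sdhd, Cyc1, Cycs and Ndufa4 together with those whose symbol begins with Uqcr, Cox4, Cox5, Cox6, Cox7, Cox8 or Atp5. This gave 50 of the 39179 genes in the count files, of which 4 belong to complex II, 10 to complex III with cytochrome c, 19 to complex IV and 17 to complex V, while 7 pseudogenes with matching symbols were left out. The mice were of strain C57BL/6 and were either wild-type for Mrps5, a protein of the small mitochondrial ribosomal subunit, or homozygous for the knock-in mutation V338Y, which makes the mitochondrial ribosome misread codons. The groups were wild-type at 3 mo (4 mice), V338Y at 3 mo (4 mice), wild-type at 19 mo (3 mice) and V338Y at 19 mo (4 mice). The mutation is a germline change carried by every cell, and the labels give no treatment. Each library came from 1 mouse and held between 8250653 and 18968132 assigned reads.

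The 4 complexes work in sequence on the inner mitochondrial membrane. Complex II (succinate dehydrogenase) and complex I pass electrons to ubiquinone, complex III passes them to cytochrome c, complex IV (cytochrome c oxidase) passes them to oxygen, and complex V uses the resulting proton gradient to make ATP. Complex II is built from nuclear genes alone, whereas complexes III, IV and V join nuclear-encoded subunits to core subunits that are translated inside the organelle by the ribosome that carries Mrps5. Several subunits of complex IV exist as tissue isoforms encoded by separate genes. Cox6a2, Cox7a1 and Cox8b are the forms of heart and skeletal muscle, Cox7a1 and Cox8b also of brown fat, and Cox6a1, Cox7a2 and Cox8a are the forms found in most other tissues.

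The muscle label was borne out by Myh4, the fast myosin heavy chain of limb muscle, at 22480 to 79524 CPM (counts scaled to a common library size with normalization factors) in every mouse. The Mrps5 mRNA itself was at 14.8 to 27.3 CPM in all mice and did not differ between genotypes by the test (log2 difference 0.12 ± 0.08 SE at 3 mo, adjusted p = 0.665 by edgeR), and an amino acid change leaves the count unaltered, so this level does not check the genotype. Age went together with sex among these mice, as read from Xist and Ddx3y. Xist, transcribed from the inactive X chromosome, was at 502 to 626 CPM in the 7 mice of 19 mo and at most at 0.59 CPM in the 8 mice of 3 mo, whereas the Y-linked Ddx3y was at 166 to 201 CPM at 3 mo and at most at 0.08 CPM at 19 mo. By these levels the mice of 3 mo were male and those of 19 mo female. The methods describe the 3 mo mice as female, so these libraries go against that description. An effect of age therefore cannot be told apart from an effect of sex in any age comparison below, while the genotype comparisons hold sex constant.

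Within the 4 wild-type mice of 3 mo, levels per transcript length (TPM) spread over a wide range. Atp5b, the catalytic beta subunit of ATP synthase, stood highest at 1879 ± 120 TPM (SD, n = 4), followed by Atp5k at 1772 ± 151 and Ndufa4 at 1744 ± 118. The means of these 3 genes differed by about as much as their SDs. The muscle isoforms of complex IV lay far above their partners on this scale. Cox8b was at 1317 ± 179 TPM against 65.8 ± 29.0 for Cox8a, Cox6a2 was at 1043 ± 75.8 against 60.6 ± 40.02 for Cox6a1, and Cox7a1 was at 1082 ± 129 against 413 ± 48.6 for Cox7a2. At the low end stood Atp5l (14.8 ± 3.6 TPM), Atp5s (11.4 ± 1.5) and Cox4i2 (1.5 ± 0.7), the last a form of subunit 4 known from lung. Cox6b2, Cox7b2 and Cox8c, forms known mainly from testis, had at most 7, 1 and 0 counts in any mouse and did not pass the filter, which left 47 members in every test.

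Promoter sequence was available for 37 of the 50 members (RefSeq, GRCm38.p6, 250 bases before to 50 after the gene start). The isoform partners of complex IV are shown because their ratios are followed below, Sdhd because its window held 4 of the searched motifs, and each is printed 5′ to 3′ on the strand of its gene, cut off where the annotated gene begins. Capitals mark a match, on either strand, to NRF1 (GCGCA, any base, GCGC), GABPA (CCGGAAG), SP1 (GGGCGG), ERR (TNAAGGTCA), YY1 (AANATGGCG), the E-box CAGCTG or MEF2.
Cox7a1 (muscle form), chr7:30183921-30184143, plus strand: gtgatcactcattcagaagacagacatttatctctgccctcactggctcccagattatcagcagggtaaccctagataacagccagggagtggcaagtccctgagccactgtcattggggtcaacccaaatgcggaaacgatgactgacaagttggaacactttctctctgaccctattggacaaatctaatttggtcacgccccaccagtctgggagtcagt
Cox7a2 (general form), chr9:79759879-79760103, minus strand: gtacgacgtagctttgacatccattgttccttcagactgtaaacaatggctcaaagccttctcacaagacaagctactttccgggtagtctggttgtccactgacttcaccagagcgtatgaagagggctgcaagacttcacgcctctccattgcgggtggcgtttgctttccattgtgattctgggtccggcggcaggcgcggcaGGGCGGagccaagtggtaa
Cox8b (muscle form), chr7:140900447-140900696, minus strand: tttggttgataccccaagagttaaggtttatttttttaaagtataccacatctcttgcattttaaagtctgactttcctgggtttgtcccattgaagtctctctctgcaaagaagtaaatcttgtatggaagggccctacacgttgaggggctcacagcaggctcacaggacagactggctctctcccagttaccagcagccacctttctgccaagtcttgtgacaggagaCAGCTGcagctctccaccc
Cox8a (general form), chr19:7217617-7217866, minus strand: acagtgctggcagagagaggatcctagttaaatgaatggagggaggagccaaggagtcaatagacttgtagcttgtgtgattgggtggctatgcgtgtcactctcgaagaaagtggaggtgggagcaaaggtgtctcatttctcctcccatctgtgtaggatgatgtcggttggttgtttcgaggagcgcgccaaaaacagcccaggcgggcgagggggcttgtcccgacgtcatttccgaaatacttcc
Cox6a1 (general form), chr5:115348982-115349208, minus strand: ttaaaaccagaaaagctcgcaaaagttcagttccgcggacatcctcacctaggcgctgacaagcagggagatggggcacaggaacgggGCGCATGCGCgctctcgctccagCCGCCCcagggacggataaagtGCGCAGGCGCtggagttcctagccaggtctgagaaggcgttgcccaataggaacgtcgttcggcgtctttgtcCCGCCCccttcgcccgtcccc
Sdhd (complex II), chr9:50603850-50604099, minus strand: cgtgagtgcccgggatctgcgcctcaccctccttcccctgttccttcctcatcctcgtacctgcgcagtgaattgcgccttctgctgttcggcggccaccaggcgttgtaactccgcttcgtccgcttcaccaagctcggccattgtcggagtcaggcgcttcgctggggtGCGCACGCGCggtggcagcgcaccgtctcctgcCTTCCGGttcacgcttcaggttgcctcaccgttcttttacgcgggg
All 6 stretches lie upstream of the annotated gene start. The Cox6a1 stretch held 2 NRF1 and 2 SP1 matches, the Cox7a2 stretch 1 SP1 match and the Cox8b stretch 1 E-box, whereas the Cox7a1 and Cox8a stretches held none of these letters. Over the whole windows of all members, NRF1 letters stood in 10 of 37 (27.0%, against 5.19% of 27025 genes), GABPA letters in 12 (32.4%, against 9.93%), SP1 letters in 14 (37.8%, against 38.2%) and the E-box in 2 (5.41%, against 18.3%). ERR letters were present in 2 members (5.41%, against 1.43%), YY1 letters in 3 (8.11%, against 2.76%) and the MEF2 consensus in 0 (against 3.70%). NRF1 and GABPA letters were found together in 4 members, among them Cox6a1 and Sdhd. These are matches of letters, and binding was not measured.

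With age, subunit mRNAs fell in all 4 complexes and in both genotypes. In wild-type mice 44 of the 47 tested members were lower at 19 mo than at 3 mo and 0 were higher (edgeR quasi-likelihood test, adjusted p under 0.05 over all genes), against a background of 17.8% lower and 18.3% higher among all 13657 tested genes. In V338Y mice 41 of 47 were lower and 0 were higher, against a background of 22.5% lower and 24.4% higher among 13868 genes. Without overlap between the ages, 45 members lay lower in old wild-type mice (22.4% of all genes did, and 20.8% lay higher) and 41 in old V338Y mice (22.6%, and 19.5% higher). The members had a median log2 fold change of −0.73 for wild-type and −0.76 for V338Y mice, beside 0.02 and 0.07 over all genes tested. Scaled by library size only, the median for V338Y mice was −0.47 with 29 members called, while the median over all genes moved to 0.36. A change of scaling shifts all genes nearly alike. The distance between the 2 medians, −0.83 in either case, was therefore bound to stay and is no check of the fall. Of the members, 40 passed the test in both genotypes, which is 40 of 44 and 40 of 41. With 44 and 41 of 47 called, a large overlap was bound to follow. The 2 age comparisons share no mice, but both carry the difference in Xist and Ddx3y described above. Calls that were lost when some mouse was left out were those of Sdha, Sdhb, Atp5j, Cox6a2, Cox8a and Atp5s for wild-type mice and those of Sdha, Uqcrfs1, Atp5b and Atp5l for V338Y mice.

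The fall could be read in each mouse. Summed over all members, wild-type mice held 14103, 13782, 15381 and 14778 CPM at 3 mo and 8455, 8142 and 10242 CPM at 19 mo. V338Y mice held 15304, 16023, 15640 and 14719 CPM at 3 mo and 9968, 8600, 6823 and 11283 CPM at 19 mo. No mouse of 19 mo reached the lowest mouse of 3 mo, and the spread among the old mice was wider than among the young, with V338Y mouse 4 lowest and V338Y mouse 5 highest. As a share of all assigned reads, before any scaling factor, the members made up 1.37% ± 0.09 (SD, n = 4) in wild-type mice at 3 mo, 0.915% ± 0.112 (n = 3) at 19 mo, 1.41% ± 0.03 (n = 4) in V338Y mice at 3 mo and 1.04% ± 0.23 (n = 4) at 19 mo. In whole muscle, a smaller share of mitochondria-rich cells and less of these mRNAs per cell cannot be told apart.

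**Figure D1:**
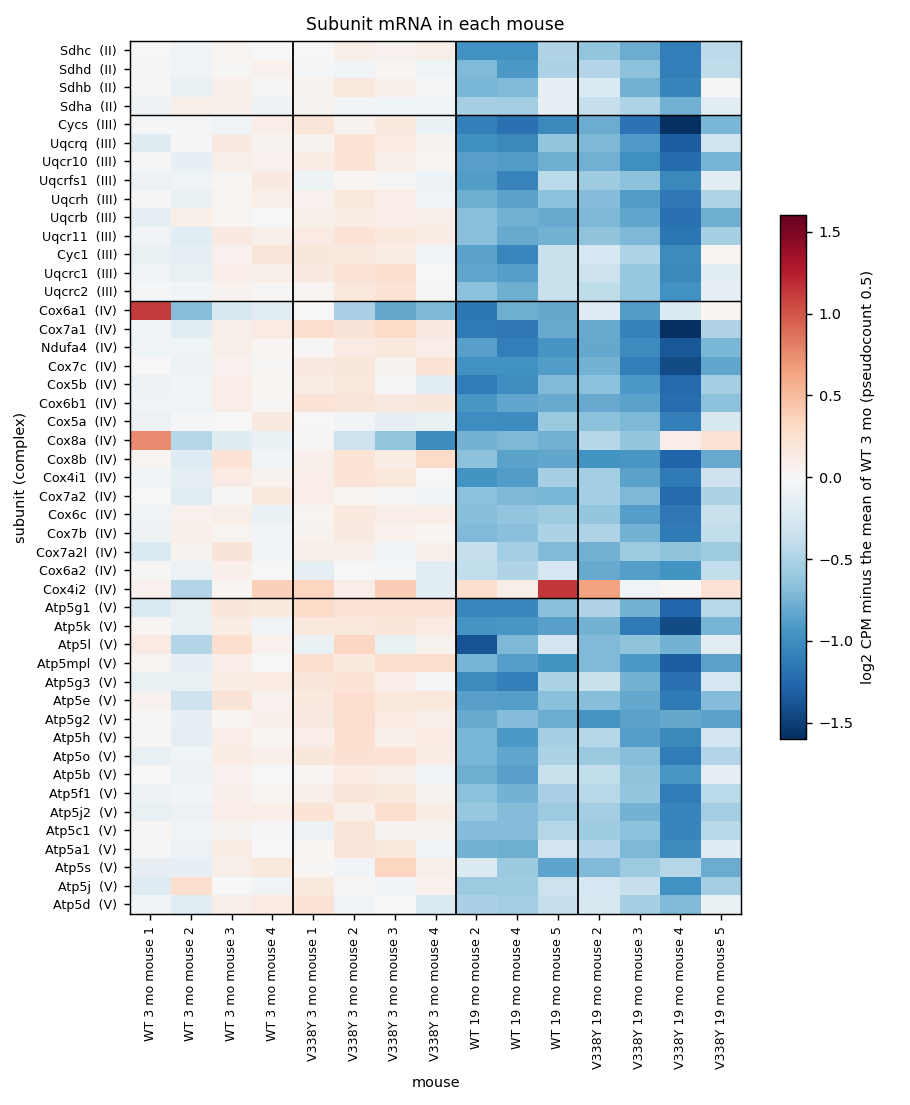
Level of each tested member in each mouse as log2 CPM (pseudocount 0.5) minus the mean of the wild-type mice of 3 mo, with rows grouped by complex and columns by group. The columns of 19 mo are blue in nearly all rows, V338Y 19 mo mouse 4 most deeply, while Cox6a1, Cox8a and Cox4i2 stand apart in single mice.

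Complex II, the 4 genes of succinate dehydrogenase, had a median change of −0.58 in wild-type mice (4 of 4 called) and −0.54 in V338Y mice (3 of 4 called). Sdhc, a membrane anchor, fell most. It stood at 205, 198, 212 and 207 CPM in wild-type mice of 3 mo and at 105, 105 and 147 CPM at 19 mo (log2 fold change −0.77 ± 0.13, adjusted p = 0.00232), and in V338Y mice at 207, 219, 216 and 219 CPM against 133, 118, 95.4 and 154 CPM (−0.76 ± 0.14, adjusted p = 0.00173). All old mice lay below all young mice. Sdha, the flavoprotein that oxidises succinate and the complex II gene with the most reads, changed least. It was at 608, 685, 681 and 609 CPM against 447, 440 and 590 CPM in wild-type mice (−0.37 ± 0.13, adjusted p = 0.0471), and at 673, 624.5, 613 and 621 CPM against 497, 457, 378 and 574 CPM in V338Y mice (−0.38 ± 0.13, adjusted p = 0.0351). The groups did not overlap, but wild-type mouse 5 and V338Y mouse 5 came close to the young mice, and the wild-type call was lost on leaving out any of the mice except wild-type 19 mo mouse 5. Sdhb, the iron-sulphur subunit, passed in wild-type mice (−0.48 ± 0.15, adjusted p = 0.0339) but not in V338Y mice (−0.49 ± 0.21, adjusted p = 0.073), where V338Y mouse 5 at 262 CPM lay inside the young range of 255 to 291 CPM. Without V338Y mouse 5 the Sdhb difference in V338Y mice was −0.67 with an adjusted p of 0.0113.

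In complex III with cytochrome c, 10 of 10 genes were called lower in wild-type mice (median −0.74) and 9 of 10 in V338Y mice (median −0.85). Cycs, the electron carrier that also triggers apoptosis when released, was the most reduced of them. Wild-type mice held 211, 211, 207 and 230 CPM at 3 mo and 100, 93.5 and 105 CPM at 19 mo (−1.09 ± 0.09, adjusted p = 9.65e-05), and V338Y mice held 246, 223, 239 and 199 CPM at 3 mo and 124, 94, 67.9 and 129 CPM at 19 mo (−1.10 ± 0.18, adjusted p = 0.00121). The highest old mouse, at 129 CPM, was far under the lowest young mouse at 199 CPM. Uqcrc2, a core subunit facing the matrix, fell least in wild-type mice (−0.57 ± 0.11, adjusted p = 0.00477). Uqcrc1, its partner and the gene of this complex with the most reads, was at 353, 341, 400 and 395 CPM against 208, 202 and 289 CPM in wild-type mice and at 412, 432, 446 and 375 CPM against 292, 244, 182 and 328 CPM in V338Y mice. All old values of Uqcrc1 were below all young values. Cyc1, cytochrome c1, passed in wild-type mice (−0.71 ± 0.16, adjusted p = 0.00957) and missed in V338Y mice (−0.47 ± 0.18, adjusted p = 0.0584). There V338Y mouse 5 at 185 CPM overlapped the young range of 174 to 205 CPM, and without that mouse the difference was −0.63 with an adjusted p of 0.00894.

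In complex IV, 14 of 16 tested genes were called lower in wild-type mice (median −0.80) and 13 of 16 in V338Y mice (median −0.76). Ndufa4, a subunit once assigned to complex I and the complex IV gene with the most reads, was at 425, 426, 474 and 455 CPM at 3 mo against 243, 207 and 230 CPM at 19 mo in wild-type mice (−0.95 ± 0.09, adjusted p = 0.000205). In V338Y mice it was at 450, 486, 497 and 480 CPM against 252, 220, 173 and 267 CPM (−1.04 ± 0.14, adjusted p = 0.0004). No old mouse came near the young range. Cox7c, a small structural subunit, fell by 0.93 ± 0.08 in wild-type mice and by 1.14 ± 0.15 in V338Y mice on the log2 scale. Cox5a and Cox5b, the nuclear subunits that contact the matrix side, fell by 0.84 ± 0.12 and 0.91 ± 0.12 in wild-type mice and by 0.56 ± 0.15 and 0.82 ± 0.15 in V338Y mice. The members not called were Cox4i2 and Cox6a1 in both genotypes and Cox8a in V338Y mice, and all 3 are isoforms with low levels in this tissue.

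In complex V, 16 of 17 genes were called lower in wild-type mice (median −0.67) and 16 of 17 in V338Y mice (median −0.76), and all 17 had a negative change in both. Atp5b held the most reads of all members, at 2006, 1888, 2091 and 2001 CPM against 1160, 1094 and 1554 CPM in wild-type mice (−0.63 ± 0.14, adjusted p = 0.00759). In V338Y mice it was at 2037, 2185, 2135 and 1942 CPM against 1517, 1272, 1047 and 1808 CPM (−0.53 ± 0.17, adjusted p = 0.028). Old mice were lower throughout, the mice numbered 5 of both genotypes least so. Atp5g1, one of the genes for the c-ring, fell by 0.90 ± 0.14 in wild-type mice, and Atp5mpl, a small proteolipid, was the most reduced gene of this complex in V338Y mice. Atp5mpl stood at 248, 228, 248 and 250 CPM at 3 mo and at 125.7, 108, 82 and 113 CPM at 19 mo (−1.16 ± 0.13, adjusted p = 0.000189), and the old and young mice lay far apart. Atp5d, the delta subunit of the head, fell least, by 0.47 ± 0.10 in wild-type mice (adjusted p = 0.0075). In V338Y mice Atp5d was at 160, 131, 137 and 118 CPM against 115, 94.9, 83.9 and 128 CPM and was not called (−0.34 ± 0.14, adjusted p = 0.0674). Atp5l, subunit g, was called in V338Y mice (−0.65 ± 0.21, adjusted p = 0.0275) and not in wild-type mice (−0.86 ± 0.32, adjusted p = 0.0624). It had only 22 to 80 counts in a library, and 64.5% of the 60-base stretches of its transcript occur in other counted genes, so its level in the files is uncertain.

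**Figure D2:**
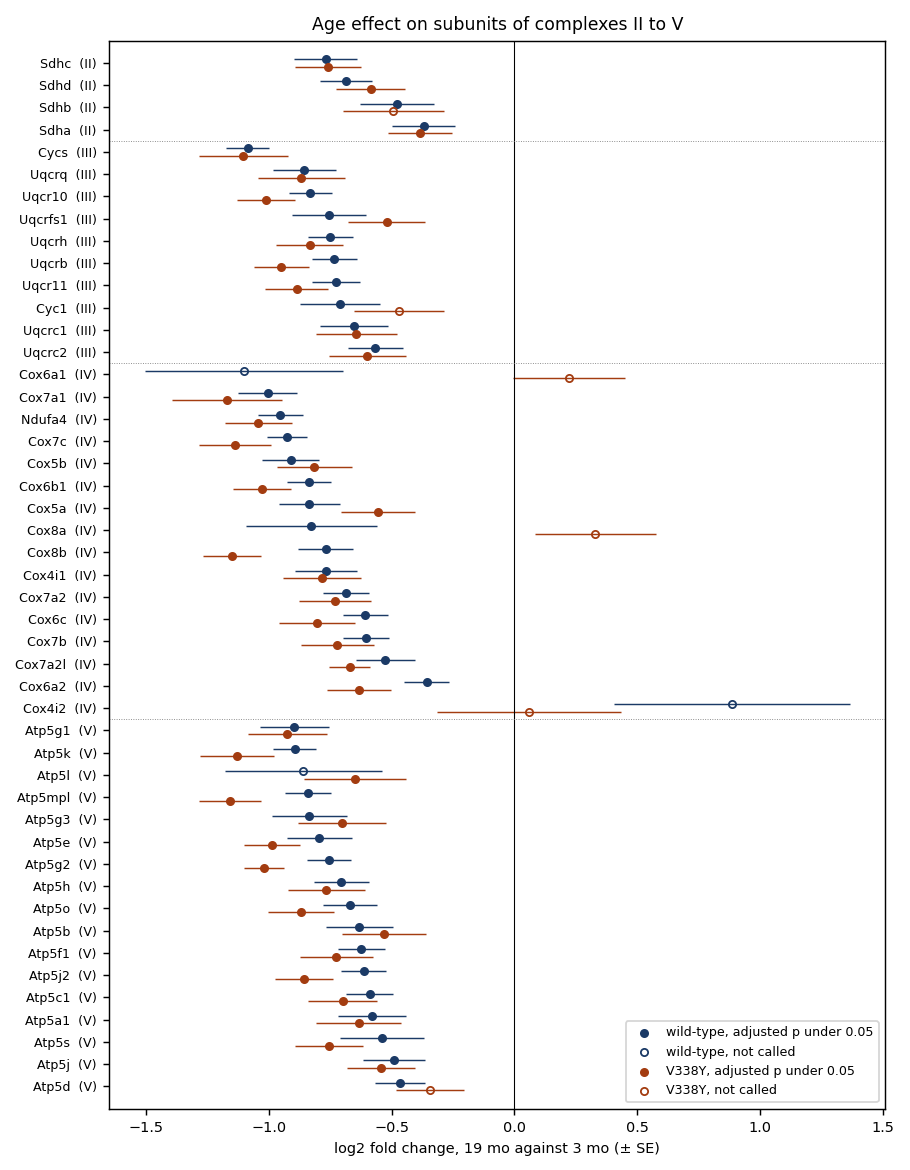
Log2 fold change of each tested member from 3 mo to 19 mo with its standard error, in wild-type mice (blue) and V338Y mice (red), grouped by complex, with open symbols for members not called at an adjusted p of 0.05. All members but Cox4i2 in wild-type mice, and all but Cox4i2, Cox6a1 and Cox8a in V338Y mice, lie below 0.

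The size of the fall went with transcript length. Over the 47 members, Spearman's rho between log2 fold change and transcript length came to 0.47 for wild-type and 0.52 for V338Y mice, and over all genes with a known length it was 0.34 and 0.28. The 24 members with transcripts of at most 730 bases had a median of −0.83 in wild-type and −0.88 in V338Y mice, and the 23 longer ones −0.62 and −0.67. Among all genes, the short ones had a median of −0.25 in wild-type and −0.14 in V338Y mice, against 0.03 and 0.08 for the long ones. Genes share libraries and are not independent, so these are descriptions, and the part of RNA quality or library preparation in them was not tested. For 10 members, more than 20% of the 60-base stretches of the transcript occur in another counted gene, the largest shares after Atp5l being 41.9% for Atp5h, 37.6% for Uqcrb and 34.4% for Atp5f1, so that their levels depend on how the authors' counting divided such reads.

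The isoforms of complex IV and the c-ring genes of complex V were compared as ratios within each mouse, which do not depend on library size. For 7 pairs and 4 comparisons, 28 exact two-sided permutation tests were run on the log2 ratio. The smallest p these group sizes allow is 0.0286, and 6 tests reached it, but after adjustment over the 28 tests 0 passed (smallest adjusted p = 0.133). The ratios are therefore given as sizes with their errors.

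For subunit 7a, both the muscle and the general form fell with age, and the muscle form had the larger fold change. Cox7a1 was at 255, 231, 280 and 287 CPM against 119, 118 and 150 CPM in wild-type mice (−1.01 ± 0.12, adjusted p = 0.000552) and at 316, 303, 322 and 289 CPM against 149, 124, 75.8 and 188 CPM in V338Y mice (−1.17 ± 0.22, adjusted p = 0.00244). Cox7a2 was at 149, 134, 152 and 167 CPM against 95.3, 91 and 90.4 CPM in wild-type mice (−0.69 ± 0.09, adjusted p = 0.00089) and at 162, 155, 152 and 144 CPM against 103, 91.2, 62.9 and 105 CPM in V338Y mice (−0.73 ± 0.15, adjusted p = 0.00321). No old mouse overlapped a young one in either gene. The log2 ratio of Cox7a1 to Cox7a2 went from 0.80 ± 0.05 (SD, n = 4) to 0.48 ± 0.22 (n = 3) in wild-type mice and from 1.01 ± 0.05 (n = 4) to 0.52 ± 0.24 (n = 4) in V338Y mice, and both changes reached the smallest exact p of 0.0286 (unadjusted). At 3 mo the ratio was higher in all 4 V338Y mice than in all 4 wild-type mice, by 0.20 ± 0.04 (SE), again at the smallest exact p of 0.0286. Cox7a2l, a relative with a described role in joining complexes III and IV into supercomplexes, fell by 0.53 ± 0.12 in wild-type mice and by 0.67 ± 0.08 in V338Y mice. Supercomplexes were not measured here.

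For subunit 8, the muscle form Cox8b fell in both genotypes and the general form Cox8a passed the test in wild-type mice alone. Cox8b was at 268, 226, 304 and 253 CPM against 165, 145 and 146 CPM in wild-type mice (−0.77 ± 0.11, adjusted p = 0.00123) and at 277, 305, 284 and 323 CPM against 134, 137, 107 and 149 CPM in V338Y mice (−1.15 ± 0.12, adjusted p = 0.000142). Cox8a was at 32.3, 13.6, 16.5 and 17.5 CPM against 10.9, 11.3 and 10.9 CPM in wild-type mice (−0.83 ± 0.27, adjusted p = 0.0376) and at 19.2, 14.8, 12 and 9.1 CPM against 13.7, 12, 20.3 and 22.2 CPM in V338Y mice (0.33 ± 0.25, adjusted p = 0.295). The 3 old wild-type mice lay close together below all young wild-type mice, whereas in V338Y mice young and old overlapped and mice 4 and 5 were high. Without wild-type 3 mo mouse 1 the wild-type difference was −0.50 with an adjusted p of 0.0199, and without wild-type 3 mo mouse 4 or any old wild-type mouse the call was lost. Without V338Y 19 mo mice 4 and 5 the V338Y difference was −0.10. The log2 ratio of Cox8b to Cox8a was 3.79 ± 0.51 (SD, n = 4) in wild-type mice at 3 mo and 3.78 ± 0.12 (n = 3) at 19 mo, and it was 4.48 ± 0.53 (n = 4) at 3 mo and 2.98 ± 0.50 (n = 4) at 19 mo in V338Y mice. The difference of −1.496 ± 0.37 (SE) in V338Y mice stood in non-overlapping groups at the smallest exact p of 0.0286 (unadjusted).

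For subunit 6a, the muscle form Cox6a2 was the least reduced of the called complex IV genes in wild-type mice. It was at 399, 367, 415 and 393 CPM against 299.7, 281 and 327 CPM (−0.36 ± 0.09, adjusted p = 0.0152), and in V338Y mice at 357, 394, 386 and 349 CPM against 225, 214, 203 and 299 CPM (−0.63 ± 0.13, adjusted p = 0.0036). Cox6a1 was at 37.1, 10.3, 14 and 14.8 CPM against 7.3, 9.5 and 9.3 CPM in wild-type mice (−1.10 ± 0.40, adjusted p = 0.0585), where wild-type 3 mo mouse 1 stood far above the rest. Without that mouse the difference was −0.56 with an adjusted p of 0.0445. In V338Y mice Cox6a1 was at 16.6, 11.6, 9.3 and 10 CPM against 14.5, 8.8, 14.2 and 17.2 CPM (0.22 ± 0.23, adjusted p = 0.445), with the ages overlapping. The log2 ratio of Cox6a2 to Cox6a1 was 4.55 ± 0.77 (SD, n = 4) and 5.12 ± 0.24 (n = 3) in young and old wild-type mice and 4.995 ± 0.40 (n = 4) and 4.12 ± 0.34 (n = 4) in young and old V338Y mice. At 19 mo all 4 V338Y mice had a lower ratio than all 3 wild-type mice, a difference of −1.002 ± 0.22 (SE, exact permutation p = 0.0571).

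For subunit 4, Cox4i1, the main form, fell by 0.77 ± 0.13 in wild-type mice and by 0.79 ± 0.16 in V338Y mice. Cox4i2 had 4 to 23 counts in a library, 0.28 to 1.87 CPM, with overlapping ages in both genotypes (0.89 ± 0.48 in wild-type mice, adjusted p = 0.175). Its log2 ratio to Cox4i1 was higher in all old mice than in all young mice, by 1.58 ± 0.44 (SE) in wild-type mice and by 0.89 ± 0.27 in V338Y mice, both at the smallest exact p of 0.0286 (unadjusted). Of this pair only Cox4i1 passed the test for its own level. The 3 genes for the c-ring of ATP synthase, whose mature proteins are identical, fell together. Atp5g1, Atp5g2 and Atp5g3 fell by 0.90 ± 0.14, 0.76 ± 0.09 and 0.84 ± 0.15 in wild-type mice and by 0.93 ± 0.16, 1.02 ± 0.08 and 0.70 ± 0.18 in V338Y mice on the log2 scale. Differences in their ratios lay between −0.14 and 0.34 over all comparisons, with exact permutation p-values of 0.314 or more.

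**Figure D3:**
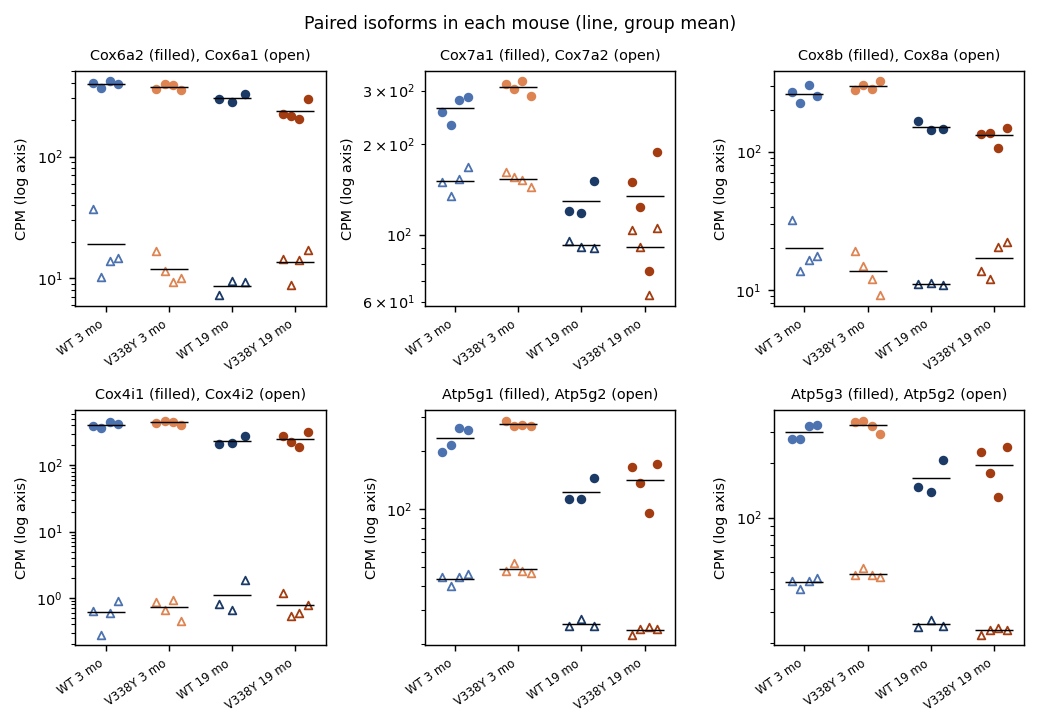
CPM on log axes of the genes of each isoform pair in every mouse, with a line at each group mean, for wild-type and V338Y mice of 3 mo and 19 mo. The muscle forms Cox6a2, Cox7a1 and Cox8b (filled) are lower in all old mice than in all young ones, while Cox6a1 and Cox8a (open) overlap between ages in V338Y mice and are high in wild-type 3 mo mouse 1.

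Between genotypes, no member passed the test at either age without the block described below. These comparisons use the same mice as the age comparisons. At 3 mo 0 of 47 members were called by edgeR (background 0.0375% of 13333 genes in each direction) and 0 by DESeq2. The median log2 difference of V338Y from wild-type was 0.10, beside −0.003 over all genes, and 39 members had a positive and 8 a negative difference. With unadjusted p under 0.05 there were 7 members, all of them higher in V338Y mice, against 5.03% of all genes higher and 4.67% lower at that p, and 7 members lay higher in all V338Y mice than in all wild-type mice, against 2.68% of all genes higher and 2.03% lower. Standard errors lay between 0.06 and 0.38 with a median of 0.07. The smallest p belonged to Atp5mpl, at 248, 228, 248 and 250 CPM in V338Y mice and 211, 185, 221 and 205 CPM in wild-type mice (0.24 ± 0.07, adjusted p = 0.366 by edgeR). Cox7a1, with the values given above, differed by 0.22 ± 0.07 (adjusted p = 0.422), and Cox6b1, which joins the monomers of complex IV, by 0.18 ± 0.06 (adjusted p = 0.422). Cox6b1 was at 362, 357, 343 and 353 CPM in V338Y mice and at 300.4, 296, 336 and 316 CPM in wild-type mice. The V338Y mice were above the wild-type mice in all 3 genes. The other members with unadjusted p under 0.05 were Atp5o, Atp5g1, Atp5k and Cox7c, at log2 differences of 0.15 to 0.23. Without wild-type mice 1 and 4, whose Ucp1 is described below, 2 members had unadjusted p under 0.05 and 0 were called. Only wild-type mice 2 and 3 were left in that fit, and the share of all genes at that p is not given for it. The differences of the 7 members were 0.16 to 0.27 there, against 0.15 to 0.24 with all mice, so they did not shrink as a set.

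At 19 mo 0 of 47 members were called by edgeR (background 0.0361% of 13833 genes higher and 0.00723% lower) and 0 by DESeq2, and the difference had both signs, 26 positive and 21 negative with a median of 0.02. Standard errors were larger than at 3 mo, with a median of 0.18 and a range of 0.10 to 0.47. With unadjusted p under 0.05 there were 2 members, against 6.17% of all genes higher and 2.75% lower. Without overlap, Cox8a lay higher in V338Y mice (4.84% of all genes) and Atp5g2 lower (4.55%). Cox6a1 was higher in V338Y mice by 0.67 ± 0.23 (adjusted p = 0.537 by edgeR) and Cox8a by 0.64 ± 0.22 (adjusted p = 0.537). All 4 V338Y mice had more Cox8a than the 3 wild-type mice, and for Cox6a1 V338Y mouse 3 lay inside the wild-type range. With the mouse number as a block, Cox6a1 was called (0.85, adjusted p = 0.0487 by edgeR) and Cox8a was not (0.76, adjusted p = 0.0706). The block was taken from these same data, where deviations of same-numbered mice of this age correlated at 0.14 to 0.41. No label states a pairing, and the differently numbered V338Y mouse 3 and wild-type mouse 2 correlated more (0.49). The blocked fit rests on the 3 pairs numbered 2, 4 and 5, since V338Y mouse 3, the one inside the wild-type Cox6a1 range, has no partner and does not enter the difference. Without V338Y mice 4 and 5, the 2 differences were 0.42 and 0.22 and neither was called. Cox6a2, the muscle partner, differed by −0.35 ± 0.16 (adjusted p = 0.557 by edgeR), and only V338Y mouse 5 reached the wild-type range.

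**Figure D4:**
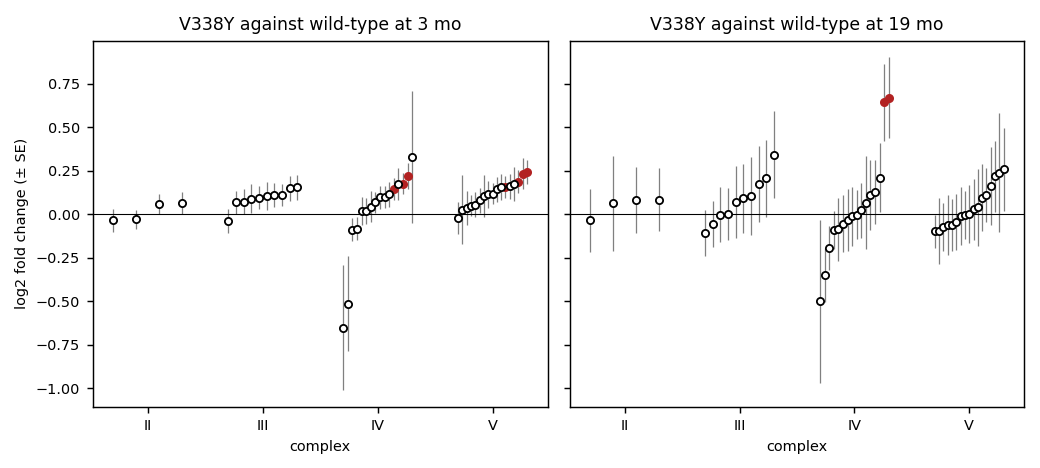
Log2 difference of V338Y from wild-type mice with its standard error for each tested member, grouped by complex and ordered by size, at 3 mo (left) and 19 mo (right), with members of unadjusted p under 0.05 in red. At 3 mo 39 of 47 members lie above 0 with small differences, at 19 mo 26 do, and 0 members passed the adjusted threshold at either age.

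Whether the fall with age differed between genotypes was tested by the interaction of age and genotype in all 15 mice. By edgeR 0 of 47 members passed (background 0% of 14128 genes), and 4 had unadjusted p under 0.05, against 5.06% of all genes higher and 4.57% lower at that p. Cox8a (1.14 ± 0.40, adjusted p = 0.433 by edgeR) and Cox6a1 (1.31 ± 0.50, adjusted p = 0.466) had the more positive change in V338Y mice. Atp5g2 (−0.28 ± 0.11, adjusted p = 0.466 by edgeR) and Cox8b (−0.39 ± 0.16, adjusted p = 0.484) had the more negative change in V338Y mice. Atp5g2 was at 44.2, 39.9, 44.5 and 46.1 CPM against 24.7, 26.8 and 24.9 CPM in wild-type mice and at 48, 52.7, 47.7 and 46.6 CPM against 22.4, 23.8, 24.4 and 23.8 CPM in V338Y mice. Its ages were far apart in both genotypes and its old groups nearly touched. The values for Cox8a and Cox6a1 depended on single mice. Without wild-type 3 mo mouse 1 the interactions were 0.82 and 0.77, and without wild-type 3 mo mice 1 and 4 and V338Y 19 mo mice 4 and 5 they were 0.35 and 0.44.

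Markers of other cells moved with some of these mice. Ucp1, the uncoupling protein of brown fat, was at 328 CPM in wild-type 3 mo mouse 1 and at 37 CPM in mouse 4 of that group and at most at 4.34 CPM in the others, and it was listed at 0 in all old wild-type mice. The summed level of 8 brown adipocyte markers, of which muscle also expresses Cpt1b and Ppargc1a, was 750 CPM in wild-type 3 mo mouse 1, 273 to 360 CPM in the other young mice, 216 to 337.9 CPM in old wild-type mice and 180 to 366 CPM in old V338Y mice. With age 0 of these 8 were higher (18.3% of all genes were) and 2 lower (17.8%) in wild-type mice. Of the 6 tested in V338Y mice, 2 were higher (24.4% of all genes were) and 1 lower (22.5%). The same mouse had the highest Cox6a1 and Cox8a of all mice. The summed level of 12 adipocyte markers was 1892 to 4713 CPM in old wild-type mice, 2058 to 4453 CPM in old V338Y mice and 1666 to 3887 CPM in young mice. With age, 1 of the 12 was higher (18.3% of all genes were) and 2 were lower (17.8%) in wild-type mice. In V338Y mice 4 were higher (24.4% of all genes were) and 0 lower (22.5%). Adipoq, the adipocyte hormone, was at 77.4, 24, 142 and 44.6 CPM in old V338Y mice 2, 3, 4 and 5, whose Cox8a was at 13.7, 12, 20.3 and 22.2 CPM. The 12 adipocyte markers summed to 3030, 2058, 4453 and 3954 CPM in the same mice. In old wild-type mice 2, 4 and 5 they summed to 1892, 2553 and 4713 CPM, beside Cox8a at 10.9, 11.3 and 10.9 CPM. Old wild-type mouse 5 thus had the highest adipocyte sum of all mice without a raised Cox8a. The part of these cells in the Cox6a1 and Cox8a results was not tested. Wild-type 3 mo mouse 1 and V338Y 19 mo mice 4 and 5 had the highest Cox8a of their groups. Leaving them out was bound to lower the Cox8a level of those groups and is no such test. When V338Y 19 mo mice 4 and 5 were left out, wild-type 19 mo mouse 5, with the highest adipocyte sum, stayed in.

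**Figure D5:**
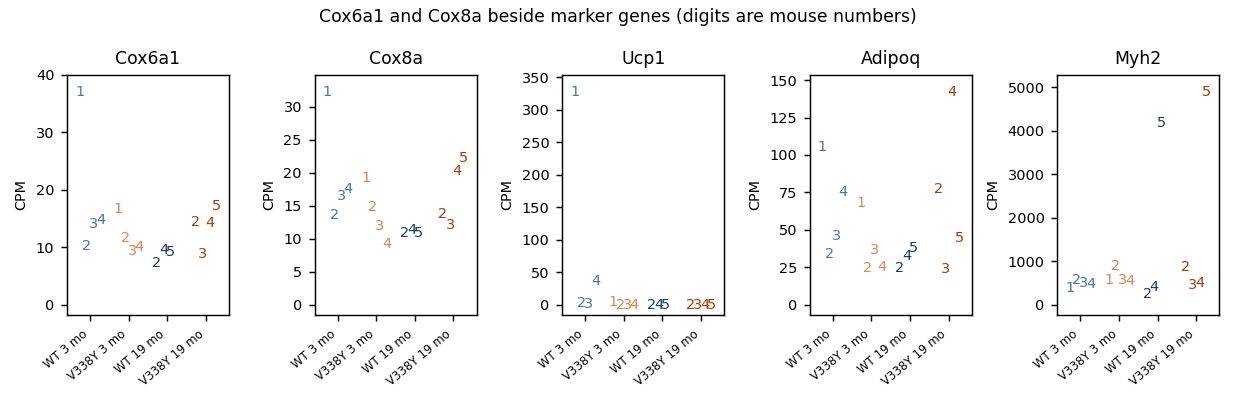
CPM of Cox6a1 and Cox8a and of the marker genes Ucp1 (brown fat), Adipoq (fat) and Myh2 (oxidative fast fibres) in each mouse, with digits for mouse numbers and linear axes. Wild-type 3 mo mouse 1 is highest for Cox6a1, Cox8a and Ucp1, V338Y 19 mo mouse 4 is highest for Adipoq, and the mice numbered 5 are highest for Myh2.

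Fibre markers and blood cells varied between the old mice as well. Myh2, the myosin of oxidative fast fibres, was at 4172 CPM in wild-type mouse 5 and 4896 CPM in V338Y mouse 5, against 243 to 883 CPM in the others, and these were the mice with the highest summed member level of their old groups. Of 9 slow-fibre markers, 8 were higher with age in wild-type and 0 in V338Y mice (18.3% and 24.4% of all genes were), although all 9 had a positive difference in both genotypes (medians of 3.58 and 2.26 on the log2 scale) and 0 of 9 passed the interaction. They had summed levels of 101 to 912 CPM in old wild-type mice, 84.7 to 3023 CPM in old V338Y mice and 74.6 to 222 CPM in young mice. Of 11 fast-fibre markers, 1 was higher (18.3% of all genes were) and 4 were lower (17.8%) with age in wild-type mice. In V338Y mice 1 was higher (24.4% of all genes were) and 7 were lower (22.5%). Their summed levels were 96382 to 150315 CPM in old wild-type and 75437 to 131871 CPM in old V338Y mice, against 133515 to 154185 CPM in young mice. Neutrophil markers (8 genes) summed to 2.9 to 623 CPM in old V338Y mice, the highest in mouse 5, and to at most 4.71 CPM in all other mice. Hemoglobin and other erythroid genes (5) summed to 158 to 786 CPM in old V338Y mice and 97.1 to 148 CPM in old wild-type mice. With age, 4 of 8 macrophage markers, 3 of 7 endothelial markers, 2 of 6 nerve markers and 1 of 6 fibroblast markers were higher in wild-type mice (18.3% of all genes were), and 5, 4, 5 and 0 were higher in V338Y mice (24.4% of all genes were), while 3 fibroblast markers were lower in each genotype (17.8% and 22.5% of all genes were). The part of fibre and cell makeup in the fall of the members was not tested. The median member relative to the mean of the young wild-type mice was at −0.76, −0.83 and −0.58 (log2) in wild-type mice 2, 4 and 5 and at −0.60, −0.76, −1.11 and −0.43 in V338Y mice 2, 3, 4 and 5. In each genotype the mouse with the highest Myh2, mouse 5, had the smallest fall of its old group. That mouse also had the highest slow-fibre sum of its group (912 and 3023 CPM). Among the other old mice the order was mixed. Wild-type mouse 4 had more Myh2 than mouse 2 (403 against 243 CPM) but the deeper fall, and so had V338Y mouse 4 beside mouse 3 (503 against 461 CPM). V338Y mouse 2, at 873 CPM, was second to mouse 5 in both.

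Other genes of oxidative metabolism were counted in the same way. Of all genes tested, 17.8% were lower and 18.3% higher with age in wild-type mice. In V338Y mice 22.5% of all genes were lower and 24.4% higher. Of 36 nuclear subunits of complex I, 35 were lower with age in wild-type mice (median −0.69) and 36 in V338Y mice (median −0.82). Ndufs6, a zinc-binding subunit, fell by 0.86 ± 0.09 and by 1.03 ± 0.10. Of 35 assembly factors for complexes II to V, 22 were lower in wild-type mice (median −0.47) and 23 in V338Y mice (median −0.56), and 0 were higher. Cox17, the copper chaperone of complex IV, fell by 0.53 ± 0.11 and by 0.79 ± 0.09. Of 16 genes for general mitochondrial membrane and matrix proteins, 13 were lower in each genotype, among them the outer membrane channel Vdac2 (−0.69 ± 0.09 and −0.72 ± 0.10). Cs, citrate synthase, often used as a measure of mitochondrial content, was not called (−0.10 ± 0.11, adjusted p = 0.495 by edgeR, and −0.15 ± 0.13, adjusted p = 0.368).

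Regulators of mitochondrial biogenesis had called changes in both directions. Of 20, 4 were higher and 2 lower with age in wild-type mice, where 18.3% of all genes were higher and 17.8% lower, and 7 were higher and 4 lower in V338Y mice, where 24.4% of all genes were higher and 22.5% lower. Tfam, a factor that packs mitochondrial DNA and takes part in its transcription, fell by 0.68 ± 0.09 and by 0.95 ± 0.10. Esrra, a nuclear receptor that drives oxidative genes, fell by 0.86 ± 0.19 and by 0.75 ± 0.17. The coactivator gene Pprc1 rose by 1.19 ± 0.16 and 1.46 ± 0.17, the coactivator Ppargc1b by 1.30 ± 0.23 and 1.36 ± 0.26, and Mef2d, a muscle transcription factor, by 1.19 ± 0.12 and 1.03 ± 0.13. Ppargc1a was called higher in V338Y mice (0.58 ± 0.15, adjusted p = 0.0117) and not in wild-type mice (0.44 ± 0.19, adjusted p = 0.103). Of the core subunits encoded in mitochondrial DNA, mt-Co1 and mt-Cytb had enough reads to be tested. The complex IV core mt-Co1 fell by 0.53 ± 0.17 in wild-type mice (adjusted p = 0.0379) and was not called in V338Y mice (−0.60 ± 0.28, adjusted p = 0.103), while the complex III core mt-Cytb rose by 0.56 ± 0.18 and 0.74 ± 0.25. The other 4 listed mitochondrial genes of complexes IV and V were at most at 0.57 CPM in the files and were not tested, while mt-Co1 was at 6172 CPM or more in every mouse. Reads of mitochondrial genes may therefore be incompletely counted in the files, and the changes of mt-Co1 and mt-Cytb are uncertain. The cause was not tested. Between genotypes, 0 genes of all these lists passed the test at 3 mo or at 19 mo.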

How the data were processed

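RNA of quadriceps muscle was sequenced by the authors in 15 mice as single-end reads of 126 bases. The methods name RSEM with Ensembl 75, while the submitters' processing notes name STAR 2.4.2a, bcl2fastq 1.8.4, CASAVA 1.8 and GRCm38, and which of them made the counts is not given in the sources used here. The deposited values are expected counts per gene (estimated counts, whole numbers as deposited), not scaled for depth or length. Members and lists were chosen with earlier results of these data known.

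Symbols came from the GENCODE M21 annotation (37693 of 39179 gene IDs matched). Counts were fitted with edgeR 4.0.16 in R 4.3.3 (TMM, quasi-likelihood test) on the mice of each comparison, and on all 15 for the interaction. Genes needed at least 10 counts in 50% of the mice of a compared group. Benjamini-Hochberg adjustment covered all tested genes, and a member was called at an adjusted p under 0.05. Standard errors follow from the F statistic. CPM used TMM factors over all 15 mice, and TPM used the median length of protein-coding transcripts. The scripts were tested on simulated data. Values are given for the isoform pairs, the most-read and most and least changed members of each complex, members on the other side of the threshold from their complex, and the 3 smallest p-values between genotypes.

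Same-numbered mice of 19 mo had correlated deviations between genotypes (0.14 to 0.41 in 3 pairs, every one over 0.1), so by that rule the numbers were taken to pair them, although the differently numbered pair of V338Y mouse 3 and wild-type mouse 2 correlated more (0.49) and the other such pairs went down to −0.42, and the blocked value is printed where it changed a call. Nothing states that same-numbered mice share a litter. Library totals ran from 8250653 to 18968132 counts, and 0 of 105 pairs of libraries were identical. Alternatives were other normalizations and filters, DESeq2 1.42.0, a likelihood ratio test, a replicate block, all mice in the fit, leaving out each mouse, and, added after seeing the data, leaving out the mice with high Ucp1, adipocyte or Myh2 levels.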

Additional observations from a re-analysis of the deposited data

Results flagged for a closer look

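Outlying mice were looked for in each tested member in the groups of 4 mice (141 tests, where chance flags about 1 in 20), and 5 values had a gap to the nearest mouse that was large for the range of their group. Cox6a1 was at 37.1 CPM in wild-type 3 mo mouse 1 and at 10.3 to 14.8 CPM in the other mice of that group, and this mouse also had the highest Ucp1 and Cox8a. Cox7a2l was lowest in V338Y 3 mo mouse 3, at 75.2 CPM against 82.8 to 83.5 CPM. In V338Y 3 mo mouse 2, Atp5e was highest at 349.6 CPM against 326 to 329 CPM, and Atp5mpl was lowest at 228 CPM against 248 to 250.1 CPM. Atp5l was highest in V338Y 19 mo mouse 5, at 3.80 CPM against 2.39 to 2.61 CPM. The causes were not tested.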

How the results depend on the processing

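Under all alternatives run, the members' median stayed below 0 in both age comparisons, and no member was called higher with age. The count of members lower with age was 34 (without wild-type 3 mo mice 1 and 4) to 46 in wild-type mice and 29 (library size only) to 44 in V338Y mice, with 38 to 45 and 37 to 44 when 1 mouse was left out. With library size only, the median in V338Y mice was −0.47 and that of the interaction 0.14, while the median of all genes moved to 0.36 and 0.19. Members minus all genes came to −0.83 and −0.05 there. A change of scaling shifts all genes nearly alike, so these distances could hardly change and are no check. At 3 mo, 1 member (Atp5mpl) was higher between genotypes at an unadjusted p under 0.005. The share of all genes at that p is not given, so nothing is read from this count. At 19 mo, 1 member (Cox6a1) was called with the replicate block.

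Without V338Y 19 mo mice 4 and 5, Cox8a and Cox6a1 changed sign with age in V338Y mice (−0.10 and −0.044). These mice had the highest Cox8a of their group, so a lower Cox8a value was bound to follow. Leaving out 1 mouse turned uncalled values around 0, namely Cox4i2 with age in V338Y mice (−0.20 to 0.20) and the log2 ratios Cox7a1/Cox7a2 (−0.064 to 0.17) and Cox7a1/Cox7a2l (−0.075 to 0.34) between genotypes at 19 mo, Atp5g1/Atp5g2 with age in V338Y mice (−0.0497 to 0.25, and −0.0055 with the block), Cox8b/Cox8a (−0.26 to 0.12) and Atp5g3/Atp5g2 (−0.30 to 0.049) with age in wild-type mice, and Cox4i2/Cox4i1 between genotypes at 3 mo (−0.0600 to 0.40). The cause was not tested.

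In the other comparisons the numbers did not pair the mice (correlations of 0.003 to 0.02 for age in wild-type mice, −0.13 to 0.02 for age in V338Y mice and −0.17 to 0.16 between genotypes at 3 mo, with 0 mice closest to their own number). The block gave 40, 43 and 0 calls there and 0 in the interaction. With 3 or 4 mice in a group, differences between genotypes of about 3 standard errors, such as 0.24 ± 0.07 for Atp5mpl at 3 mo and 0.67 ± 0.23 for Cox6a1 at 19 mo, did not pass the adjusted threshold.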
